A study of Homo sapiens with 6 samples.

Results

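The genes described here are 10 members of the IL-1 and IL-18 axis, out of 61541 genes listed in each count file. They were found by symbol: the binding protein IL18BP, the ligands IL18, IL1A, IL1B and IL33, the antagonist IL1RN, the receptors IL18R1, IL1R1 and IL1RAP, and the protease gene CASP1. The set was chosen by pathway, with the genes' CPM in cytokine-treated against untreated cells already known. The members' values in that contrast are therefore a description and carry no test. Reads came from RCC4, an established clear cell renal carcinoma line that lacks functional VHL. It was kept in serum-supplemented DMEM and sampled as 3 untreated cultures and as 3 cultures given interferon gamma (IFNγ, 1000 U/mL) plus tumour necrosis factor (TNF, 25 ng/mL) for 24 h. Each biological replicate drew on 3 T75 flasks. Poly(A) RNA (500 ng) was read directly on nanopore flow cells for 72 h, so that 1 read stands for 1 RNA molecule, and reads were counted per gene. Both cytokines were always given together, so their separate contributions cannot be told apart, and 1 line was studied.

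IL-18 and IL-1β are made as inactive precursors in the cytosol. Caspase-1, the protease encoded by CASP1, is activated on inflammasomes and cleaves both. Mature IL-18 signals through IL18R1 with its partner IL18RAP, and IL-1α and IL-1β signal through IL1R1 with IL1RAP. All of these receptors recruit MYD88 and IRAK kinases and lead to NF-kappaB. Restraint comes from secreted proteins: IL18BP captures mature IL-18, and IL1RN occupies IL1R1 without signalling. IL18BP is a known target of IFNγ, and IL-18 is itself known for inducing IFNγ in lymphocytes.

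Library totals ran from 3626000 to 4406296 counts. Levels are given as CPM, counts scaled by library total and by TMM factors, which correct for the make-up of each library. A count of 3 over the 3 libraries of a group, taken as the limit that 0 counts allow, corresponded to 0.248 CPM for the untreated and 0.263 CPM for the treated group. Intervals and limits of this kind cover counting error alone. The epithelial and renal carcinoma markers PAX8, CA9, KRT8, KRT18, KRT19, CDH2, NDUFA4L2 and VIM were detected in every library. Of these 8, 1 was higher (VIM) and 2 were lower (PAX8 and KRT19) in treated cells in edgeR's test, against 5.58% higher and 2.55% lower over all genes tested. Of 8 leukocyte markers, 5 had 0 counts in all libraries, among them the pan-leukocyte gene PTPRC and the myeloid genes LYZ and CD68, although exons of another gene cover 82.6% of the last 500 bases of CD68. The summed leukocyte level ran from 2.96 to 5.76 CPM in untreated and from 1.35 to 2.02 CPM in treated libraries. Most of it was CSF1R, which gave 22, 21 and 13 untreated reads and 5, 5 and 4 treated ones, and was called lower (log2 fold change -1.90, adjusted p 0.0314 in edgeR's test). The 3 endothelial markers PECAM1, CDH5 and VWF had 0 counts throughout. Of the 3 fibroblast markers, DCN had 0 counts, and the summed level ran from 54.8 to 74.5 CPM in untreated and from 27.4 to 49.1 CPM in treated libraries, from COL1A1 and PDGFRB. PDGFRB fell from 10.3 to 2.72 CPM (log2 fold change -1.91, adjusted p 0.0049 in edgeR's test), and COL1A1 was not past the threshold. What part these markers have in the members' values was not tested.

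Promoter sequence was examined because it is independent of the read counts. RefSeq windows on GRCh38.p14, from 250 bases before to 50 bases after each annotated start, were at hand for 8 of the 10 members, with 19 windows in all. IL18 and CASP1 had none. Searches were made on both strands for the GAS letters TTCNNNGAA, for the ISRE core GAAANNGAAA, which IRF factors bind, and for the kappaB consensus. Of all 35116 windows in the table, 7.66% held the GAS letters, 3.57% the ISRE core and 11.3% a kappaB match. The 4 windows below are shown because they carry the matches of the gene with the most reads and of 3 members with few or none. Capitals mark the matches.
IL18BP, the third start, chr11:71999367-71999666, plus strand: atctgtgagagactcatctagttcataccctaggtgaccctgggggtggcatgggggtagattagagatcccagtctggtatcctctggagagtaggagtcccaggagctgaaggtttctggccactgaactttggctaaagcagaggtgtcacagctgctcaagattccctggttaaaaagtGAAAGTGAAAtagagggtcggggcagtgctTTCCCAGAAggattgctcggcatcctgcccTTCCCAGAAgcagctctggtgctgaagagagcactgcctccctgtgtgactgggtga
IL18R1, the second start, chr2:102356033-102356332, plus strand: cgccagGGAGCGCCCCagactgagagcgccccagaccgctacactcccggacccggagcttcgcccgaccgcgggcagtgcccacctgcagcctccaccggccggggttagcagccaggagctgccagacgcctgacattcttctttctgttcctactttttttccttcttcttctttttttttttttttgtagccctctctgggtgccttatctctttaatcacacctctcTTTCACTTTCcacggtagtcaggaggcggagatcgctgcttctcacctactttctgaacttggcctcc
IL1B, chr2:112836730-112837029, minus strand: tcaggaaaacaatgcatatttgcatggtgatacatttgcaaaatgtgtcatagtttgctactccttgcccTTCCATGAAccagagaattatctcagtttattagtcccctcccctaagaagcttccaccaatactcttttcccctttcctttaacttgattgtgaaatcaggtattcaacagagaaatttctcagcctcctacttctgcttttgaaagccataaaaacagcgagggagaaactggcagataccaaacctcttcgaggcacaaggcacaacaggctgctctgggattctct
IL1RN, the third start, chr2:113127348-113127647, plus strand: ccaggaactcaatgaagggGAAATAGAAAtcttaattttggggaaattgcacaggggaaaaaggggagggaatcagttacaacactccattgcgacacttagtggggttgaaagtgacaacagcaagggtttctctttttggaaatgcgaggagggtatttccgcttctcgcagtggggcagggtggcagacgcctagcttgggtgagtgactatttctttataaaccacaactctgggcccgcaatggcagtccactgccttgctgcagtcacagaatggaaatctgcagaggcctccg

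The IL18BP window held an ISRE core whose first base lay at -67 from the start, and 2 identical GAS matches at -37 and -7. None of these matches overlap. Windows with both kinds of match made up 0.439% of the table, and genes with such a window made up 0.546% of its genes. Among the members only this IL18BP window had both, out of 4 searched for the gene. The other 3 IL18BP windows had no match of any of the 3 kinds. IL18R1 had an ISRE core on the opposite strand at -18 and a kappaB match at -244. IL1B had a GAS match at -180, and IL1RN had the same ISRE core in 2 overlapping windows, at -231 in the one shown. IL1R1 had a GAS match at -47 in the third of its 4 windows, and IL33 had one at 16, past the start of its second window. No window of IL1A or IL1RAP held a match. Counts were summed per gene, so the start that a read came from was not measured, and a match of letters does not show that a factor binds there.

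**Figure D1:**
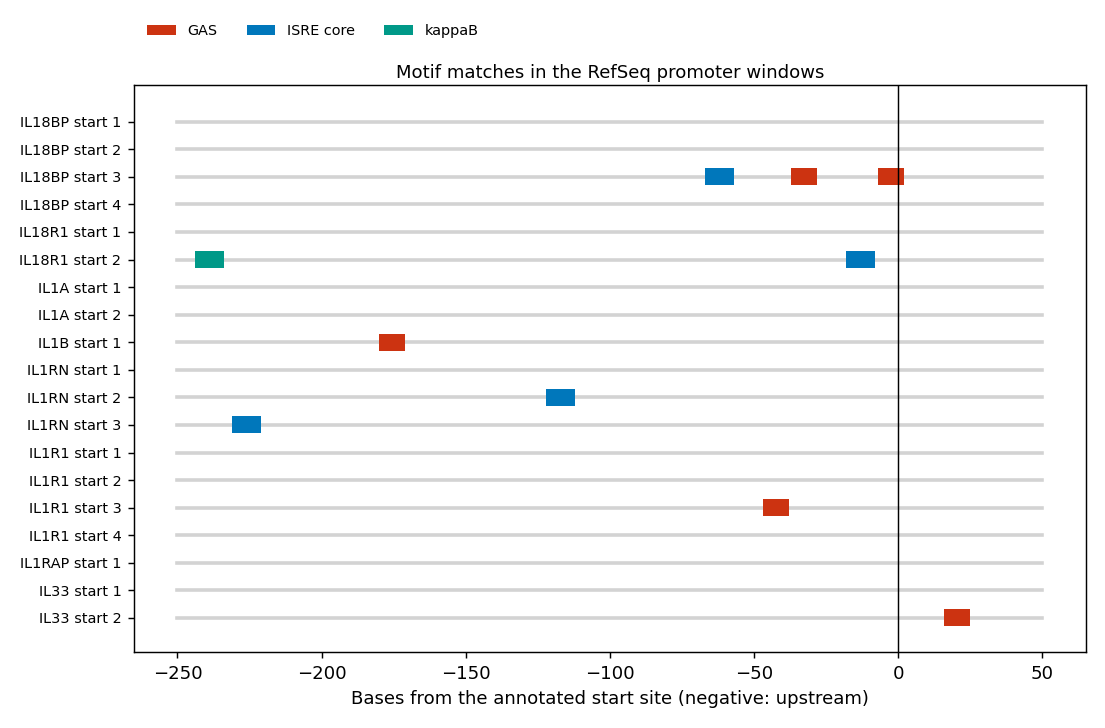
Matches to GAS, ISRE core and kappaB letters (coloured blocks) along the 19 RefSeq promoter windows of 8 members (grey lines); the horizontal axis is distance in bases from the annotated start, which the vertical line marks. The third IL18BP start carries an ISRE core at -67 and GAS matches at -37 and -7, and the other IL18BP starts carry none.

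IL18BP, the decoy that binds IL-18, was close to silent in untreated cells and abundant after treatment. The gene (ENSG00000137496) lies on chromosome 11, 71998613 to 72005715, plus strand, with 4251 exonic bases. It had 1, 2 and 4 counts in untreated replicates 1, 2 and 3, and 1207, 1373 and 1352 counts in treated replicates 1, 2 and 3. In CPM these were 0.262, 0.517 and 0.911 against 348.6, 309.9 and 385.6. Every treated library was far above every untreated one, and the treated libraries lay close together, with a mean of 348.0 ± 37.9 CPM (SD, n = 3). The summed counts gave a ratio of 595.2 (95% exact counting interval 288.6 to 1481), whose width comes from the 7 untreated reads. The fitted log2 fold change was 9.16 (SE 0.32), which ranked 20 from the highest among 10067 genes tested. In bulk RNA of this kind, more cells making a transcript and more RNA per cell cannot be told apart. Exons of NUMA1 cover 61.4% of the last 1000 exonic bases of IL18BP on the opposite strand, and none of another gene do so on its own strand. NUMA1 gave 199, 166 and 190 untreated and 141, 169 and 116 treated reads, and its log2 fold change was -0.30 (SE 0.19, adjusted p 0.461 in edgeR's test).

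IL18, the ligand that IL18BP captures, was low in both groups. It lies on the same chromosome (ENSG00000150782; 112143253 to 112164096, minus strand; 2605 exonic bases). Its counts were 12, 14 and 9 in untreated and 16, 12 and 15 in treated libraries. The groups overlap, at 2.94 ± 0.805 and 3.87 ± 1.02 CPM (SD, n = 3 each), and the log2 fold change was 0.39 (SE 0.41). With 35 and 43 reads in all, the ratio of the groups had a counting interval from 0.814 to 2.1, a range that includes 1.

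The balance of the decoy against its ligand can be read within a library, where library scaling cancels. Untreated libraries had 0.0833, 0.143 and 0.444 IL18BP reads for each IL18 read. Treated libraries had 75.4, 114.4 and 90.1. IL18 reads thus outnumbered IL18BP reads in every untreated library, and the order was turned in every treated one. The untreated ratios rest on 7 IL18BP reads in all, and untreated replicate 3 had 4 of IL18BP against 9 of IL18. The untreated order in a single library is therefore loosely set. The group means were 0.224 ± 0.194 and 93.3 ± 19.7 (SD, n = 3 each). Of all reads of the 10 genes, IL18BP held 4%, 7.14% and 8.16% in untreated libraries and 95.6%, 90.8% and 91.7% in treated ones. The exact binomial 95% intervals reached at most 23.5% in untreated libraries and went no lower than 89.2% in treated ones. They cover counting error within a library and not the spread between replicates. Those of treated replicates 1 (94.3% to 96.6%) and 2 (89.2% to 92.2%) did not overlap. Reads are RNA molecules, and protein was not measured.

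**Figure D2:**
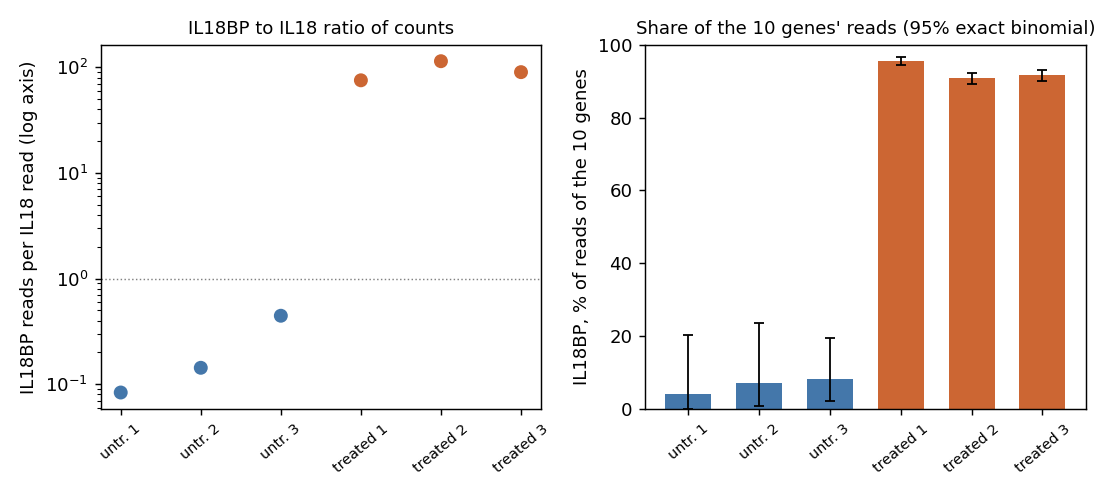
Left, IL18BP reads per IL18 read in each library (log axis; the dotted line marks 1). Right, the share of the reads of the 10 genes that belonged to IL18BP, with exact binomial 95% intervals. Untreated libraries (blue) lie at or below 0.444 on the left and 8.16% on the right, and treated libraries (orange) at or above 75.4 and 90.8%.

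CASP1 was the other member with a large difference. The gene (ENSG00000137752; chromosome 11, 105025443 to 105035250, minus strand; 3698 exonic bases) had 0, 0 and 1 counts in untreated libraries. In treated replicates 1, 2 and 3 it had 22, 78 and 51 counts, or 6.35, 17.6 and 14.5 CPM. All treated libraries were above all untreated ones, and treated replicate 1 was the lowest of them. The log2 fold change was 6.82 (SE 0.78), a fitted value that rests on a single untreated read and ran from 6.08 (limma voom) to 8.62 (without untreated replicate 3, which leaves 0 untreated counts) over 13 other settings. The ratio of summed counts was 160 with a counting interval from 28.3 to 6361. No same-strand exon of another gene overlaps CASP1 in the files.

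The IL-1 ligands, IL33 and the antagonist were at or near 0 counts in both groups. IL1A (ENSG00000115008; chromosome 2, 112773925 to 112784493, minus strand), an alarmin of epithelial cells, had 0 counts in all 6 libraries. IL33 (ENSG00000137033; chromosome 9, 6215786 to 6257983, plus strand), the nuclear alarmin that signals through IL1RL1, also had 0 counts in all 6. No same-strand exon covers any base of either gene, and their levels were under the limits of 0.248 and 0.263 CPM. IL1B (ENSG00000125538; chromosome 2, 112829751 to 112836816, minus strand) had no read in untreated cells and 2, 2 and 5 reads in treated ones. Against 3 counts over the untreated group this is 3.18-fold higher in treated cells, a value that leaves out the counting error of the treated reads. In the fit without the filter on low counts, IL1B was not past the threshold (edgeR adjusted p 0.0516). IL1RN (ENSG00000136689; chromosome 2, 113107214 to 113134016, plus strand) had 2 reads in all, both in treated replicate 3, which is under the limit, so no fold is given. With 0 to 5 reads of either gene in a library, a ratio of antagonist to agonist could not be formed.

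Receptor genes were detected at a few CPM. IL1R1 (ENSG00000115594; chromosome 2, 102064544 to 102179874, plus strand), the signalling receptor of IL-1, gave 7, 5 and 12 reads without cytokines and 8, 21 and 24 with them. The groups overlap, since treated replicate 1 lay among the untreated libraries at 2.31 CPM, whereas the other 2 treated libraries were at 4.74 and 6.85 CPM. Its log2 fold change was 1.22 (SE 0.50). IL1RAP (ENSG00000196083; chromosome 3, 190514051 to 190659750, plus strand), the co-receptor that IL-1 and IL-33 share, gave 3, 6 and 22 untreated and 5, 23 and 11 treated reads. Its groups overlap (log2 fold change 0.40, SE 0.68), and untreated replicate 3 stands apart from the other untreated libraries. Without that library the log2 fold change was 1.47, and without treated replicate 2 it was -0.061. Exons of the gene ENSG00000273370, which had 0 counts, cover all of the last 500 exonic bases of IL1RAP on the same strand. Reads touching both genes were not assigned under the header's options, and how many these were was not tested.

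IL18R1, the ligand-binding chain of the IL-18 receptor, gave 2, 1 and 1 untreated and 3, 3 and 15 treated reads (ENSG00000115604; chromosome 2, 102311529 to 102398777, plus strand). Treated replicate 3 held 15 of the 21 treated reads, and the other treated libraries were at 0.866 and 0.677 CPM, against at most 0.524 CPM in untreated cells. The ratio of summed counts was 5.56, with a counting interval from 1.88 to 22.3. It shares 95 exonic bases with IL1RL1, which had 0 counts. IL18RAP, the partner chain that IL-18 signalling needs, had 0 counts in all 6 libraries.

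**Figure D3:**
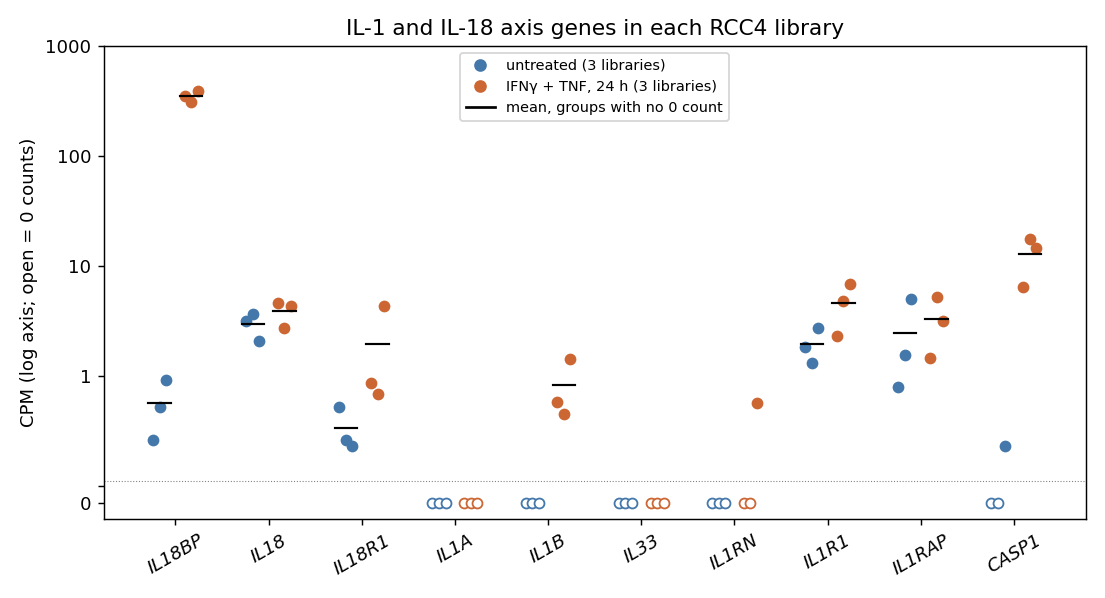
CPM of the 10 genes in each library on a log axis, with untreated libraries in blue and treated ones in orange; open symbols mark 0 counts, and bars are means of groups with no 0 count. IL18BP and CASP1 separate the groups by far more than their spread, IL18, IL1R1 and IL1RAP overlap, and IL1A and IL33 are at 0 throughout.

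Of the 10 members, 5 passed the filter on low counts: IL18BP, IL18, IL1R1, IL1RAP and CASP1. With 7 and 1 untreated reads in all, IL18BP and CASP1 passed it through their treated libraries. Among these 5, IL18BP and CASP1 were past the threshold of 0.05 on the adjusted p of edgeR's quasi-likelihood test, both higher, and none was lower. Of all 10067 genes tested, 8.14% were past it, 5.58% higher and 2.55% lower in treated cells. IL18BP and CASP1 were also the passing members whose groups did not overlap upward, as in 13.9% of all genes tested. A fit without the filter covered 19158 genes with a read, of which 4.43% were higher. In it 8 members were tested and 3 were higher: IL18BP, CASP1 and, at an edgeR adjusted p of 0.0484, IL18R1. These counts describe the members and support nothing further, since the contrast was used to choose them.

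Per kilobase of exonic length, IL18 had the highest level of the members in untreated cells, 1.13 ± 0.309 CPM per kb (SD, n = 3), above every library of the next gene. IL1R1 (0.274), IL1RAP (0.212), IL18BP (0.133), IL18R1 (0.0748) and CASP1 (0.0205 CPM per kb) followed, and each of these overlapped its neighbour in the order. In both groups the place of IL1RAP may be too low, since reads that also touched ENSG00000273370 were not assigned. In treated cells IL18BP led at 81.9 ± 8.91 CPM per kb, above all others. CASP1 at 3.47 ± 1.57 and IL18 at 1.49 ± 0.391 CPM per kb came next, and their ranges overlap. IL1R1 (0.65), IL18R1 (0.431), IL1RAP (0.282), IL1B (0.272) and IL1RN (0.0587 CPM per kb) followed, all overlapping their neighbours, whereas IL18 lay above every IL1R1 value. As each direct RNA read is 1 molecule, CPM without length was also ordered. In untreated cells IL18 (2.94 CPM) then overlapped IL1RAP (2.45 CPM), which stood before IL1R1 (1.95 CPM). In treated cells IL18BP still led. CASP1, IL1R1 and IL18 followed in that order, each with a range that overlapped the next.

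The genes whose pattern over the 6 libraries was most like that of IL18BP were ACSL5, ICAM1 and ZNFX1, by Pearson's r of log2 CPM over 6761 candidate genes. All had r = 0.999. ACSL5, an acyl-CoA synthetase gene, was at 11.3, 13.7 and 15.3 CPM in untreated and 100.5, 96.8 and 98.4 in treated libraries. ICAM1, a leukocyte adhesion molecule, had a log2 fold change of 5.43 and ZNFX1, an RNA helicase gene, one of 2.59. For CASP1 the nearest were ATP9B, P3H2 and CXCL11, with r = 0.995, 0.995 and 0.994. Their log2 fold changes were 0.53 (ATP9B), 0.92 (P3H2) and, for CXCL11, a fitted value against 0 counts in all untreated libraries. The 6 points fall into the 2 groups, and 83 genes reached r of at least 0.99 with IL18BP, so likeness of this kind mostly repeats the split between the groups.

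Genes around the members were taken from 4 lists. In the list of other IL-1 family receptors and ligands, 7 of 13 genes had 0 counts in all libraries and 2 passed the filter, and neither was past the threshold. SIGIRR, an inhibitory receptor of the family, averaged 46.6 ± 5.83 CPM without and 54.2 ± 5.53 CPM with cytokines (SD, n = 3 each). For IL1R2, the decoy receptor for IL-1, untreated libraries gave 16, 15 and 21 reads and treated ones 26, 29 and 22. Its CPM did not overlap between the groups, but the log2 fold change of 0.65 (SE 0.31) had an adjusted p of 0.293 in edgeR's test. Per kilobase, IL1R2 averaged 1.45 ± 0.155 in untreated and 2.29 ± 0.219 CPM per kb in treated cells, above the levels of IL1R1 given earlier. By CPM without length, the lowest untreated IL1R2 value (3.88) was above the highest untreated IL1R1 value (2.73). The treated ranges of the 2 genes overlapped, and treated replicate 3 had 6.27 CPM for IL1R2 and 6.85 CPM for IL1R1. The list's median log2 fold change was 0.44, against -0.03 over all genes tested.

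Among 20 signalling genes, 17 were tested, 2 were called higher and none lower, with a median log2 fold change of 0.26. Over all genes tested 5.58% were called higher, which would be about 1 of 17. MYD88, the adaptor of all these receptors, rose from a mean of 9.61 ± 3.32 to 45.6 ± 11.7 CPM (SD, n = 3 each). Its log2 fold change was 2.24 (SE 0.31, adjusted p 0.00232 in edgeR's test). Its counts were 49, 24 and 43 in untreated and 132, 175 and 207 in treated libraries, with no overlap. IRAK2, a kinase that sustains signalling after MYD88, rose from 2.67 ± 1.27 to 14.7 ± 8.48 CPM (log2 fold change 2.45, SE 0.50, adjusted p 0.0165 in edgeR's test). Treated replicate 3 held 86 of its 164 treated reads, and without it the edgeR adjusted p was 0.0663. With 7, 16 and 9 untreated reads, IRAK2 passed the filter on low counts through its treated libraries, so its call is a description. The kinase gene IRAK1 had 392.5 ± 122.4 and 347.1 ± 86.4 CPM. The brake IRAK3 had 0 counts. The E2 partner gene UBE2V1 also had 0 counts, and exons of a read-through gene cover all of its last 500 bases. The other named genes of the list, TRAF6, TOLLIP, MAP3K7, TAB1, TAB2, UBE2N, IKBKB and IKBKG, had log2 fold changes from -0.01 to 0.55 and were not past the threshold.

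In the inflammasome and release list, 17 of 18 symbols were found, 8 were tested and 3 were called higher (5.58% over all genes tested), with none lower and a median log2 fold change of 0.48. CASP4, an inflammatory caspase that senses cytosolic lipopolysaccharide, rose from a mean of 23.6 ± 11.1 to 224.7 ± 48.5 CPM (SD, n = 3 each). Its log2 fold change was 3.24 (SE 0.34, adjusted p 0.000448 in edgeR's test). GSDMD, whose cleaved product forms the pore through which IL-1β and IL-18 leave the cell, rose from 26.4 ± 7.35 to 69.6 ± 7.93 CPM (log2 fold change 1.40, SE 0.24, edgeR adjusted p 0.00629). NLRP3, an inflammasome sensor, gave 3, 0 and 0 untreated and 21, 15 and 10 treated reads, a ratio of 16.2 with a counting interval from 5.22 to 81.7. All of its untreated reads came from replicate 1, and the log2 fold change of 3.87 (SE 0.86) ran from 3.27 without untreated replicate 3 to 7.03 without untreated replicate 1, a fitted value against 0 counts. Its edgeR adjusted p was 0.0249, and it was above 0.05 in 4 of the 6 fits that left out 1 library (0.064 to 0.106). With 3 untreated reads in all, NLRP3 passed the filter on low counts through its treated libraries, so its call is a description. GSDME, another pore-forming gasdermin gene, and NINJ1, which acts in plasma membrane rupture, had log2 fold changes of 0.35 and 0.59 and were not past the threshold. PYCARD, the adaptor that links sensors to caspase-1, had 0 counts in all 6 libraries, and no same-strand exon covers its last 500 bases. Over either group, 0 counts limit it to the levels given above for IL1A.

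Around CASP1 on chromosome 11, the caspase genes lie in a row on the minus strand. CASP4 (104942866 to 104969366) had 601, 1021 and 947 treated counts and CASP5 (104994235 to 105023168) had none in any library. CARD16, a CARD-only relative of CASP1 (105041326 to 105101431), was unread in untreated cells and had 5, 14 and 14 treated reads. Against 3 counts over the untreated group these were 11.7-fold higher, without the counting error of the treated reads. CARD18 (105137714 to 105531697) had none. In CASP4, CASP1 and CARD16 alike, treated replicate 1 had the fewest reads of the treated libraries. This was not particular to these neighbours: it also held for MYD88, TNFAIP3 and MEFV on other chromosomes, though not for NLRP3 or NFKBIA. CARD16 and CASP1 are close in sequence, and whether this affected the reads counted for either was not tested. CARD16 and the pyrin gene MEFV (no untreated read, then 6, 11 and 9 with cytokines, 9.18-fold higher on the same terms) did not pass the filter. Both were past the threshold in the fit without the filter, at edgeR adjusted p of 1.31e-06 and 2.51e-05. AIM2, a sensor of cytosolic DNA, had 1, 6 and 2 treated counts and none in untreated cells.

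Genes known to be induced by IL-1 were examined as the far end of the pathway. Most are also TNF targets, and TNF was in the treatment, so the list does not separate the 2 cytokines. Of 18 genes, 12 were tested, 6 were called higher (5.58% over all genes tested) and none lower, with a median log2 fold change of 1.73. The 6 calls became 9 without the filter, 9 with the replicate number as a block and 8 in DESeq2. TNFAIP3, a brake on NF-kappaB, rose from a mean of 9.45 ± 2.46 to 155.8 ± 45.5 CPM (SD, n = 3 each). Its log2 fold change was 4.04 (SE 0.30, adjusted p 4.39e-05 in edgeR's test). The neutrophil chemokine gene CXCL2 went from 4, 0 and 4 reads without cytokines to 34, 77 and 63 with them (log2 fold change 4.45, SE 0.62, adjusted p 0.00221 in edgeR's test). CXCL2 passed the filter on low counts through its treated libraries, so its call is a description. IL6 rose from 20.5 ± 6.68 to 86.0 ± 3.18 CPM and ZC3H12A, which encodes an RNase that degrades IL6 mRNA, from 6.51 ± 1.26 to 35.1 ± 5.59 CPM. NFKBIA and CXCL5 also rose, with log2 fold changes of 1.63 and 1.47. CXCL8 gave 50, 99 and 15 reads without cytokines and 102, 204 and 90 with them (log2 fold change 1.28, SE 0.56, adjusted p 0.246 in edgeR's test). That value was 2.04 without untreated replicate 2 and 0.80 without untreated replicate 3. For CXCL1 the log2 fold change was 1.83 (SE 0.59, adjusted p 0.107 in edgeR's test), and for LIF it was -0.11. CXCL1 and CXCL8 were past the threshold in the fit without the filter and in that with the replicate number as a block (edgeR adjusted p from 0.000107 to 0.000431), and CXCL1 also in DESeq2 (adjusted p 0.0227). CSF3 and TNIP3 had no read, and PTGS2 and LCN2 had 1 each.

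**Figure D4:**
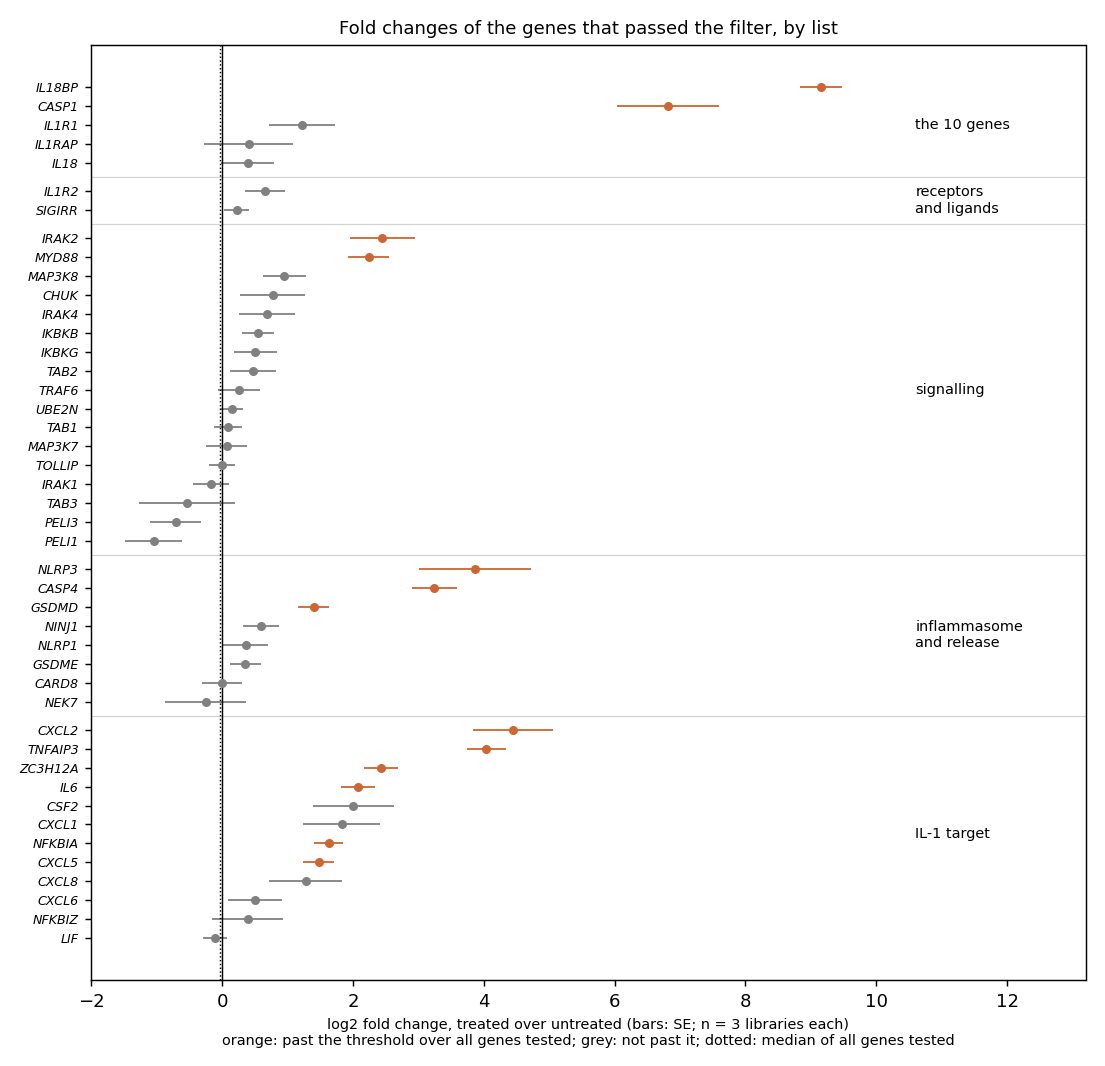
Log2 fold change (treated over untreated) with SE for every gene of the 10 and of the 4 lists that passed the filter, n = 3 libraries a group; orange marks genes past the threshold over all genes tested, and the dotted line is the median of all genes tested, -0.03. IL18BP (9.16) and CASP1 (6.82) lie beyond every gene shown from the 4 lists, the highest of which is CXCL2 (4.45). In the fit without the filter, CARD16 (6.52) and MEFV (6.19), which are not shown, were near CASP1 (6.84, SE 0.71).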

How the data were processed

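The authors deposited raw read counts per gene for each of the 6 libraries, made with featureCounts 2.0.1 in long-read, strand-specific mode over exons of Ensembl release 105 on GRCh38, per the file headers. Neither counting of multi-mapping reads nor of reads overlapping several genes was switched on there. The submitters' processing notes name minimap2 2.24, SAMtools 1.16 and featureCounts 2.0.0. The series' design text gives a minimum read quality of 7. Alignment names in all headers carry the word dmso, and groups were taken from the sample titles.

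Of 61541 identifiers, 61369 had an entry in the name table used for symbols. Counts were tested with edgeR 4.0.16 (quasi-likelihood F test, TMM, filterByExpr, Benjamini-Hochberg adjustment over all genes tested, threshold 0.05, group as the sole term) in R 4.3.3, and the script was tested on simulated data. SE is the absolute log2 fold change over the square root of F. Folds against a group at 0 use 3 counts over that group and take the other group's counts as exact. Ratios of summed counts carry exact 95% intervals. No pair of replicates agreed within sampling noise: chi-square over its degrees of freedom lay between 3.48 and 24.7, and each library counted once.

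The members and lists were chosen with earlier results of these data known. Named genes are the members, list genes past the threshold or with a mean of at least 10 CPM in a group, and the 3 genes most like each called member among tested genes averaging at least 10 CPM over all libraries; other genes are named for their counts, chosen after their values were seen. Alternatives were DESeq2 size factors, library totals, no filter on low counts, a filter at 1 CPM, DESeq2 1.42.0, limma 3.58.1 voom, leaving out each library, and a block on the replicate number.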

Additional observations from a re-analysis of the deposited data

How the results depend on the processing

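IL18BP and CASP1 were past the threshold, and IL18, IL1R1 and IL1RAP were not, in all 13 alternative fits. These fits reuse the counts known when the members were chosen, so they describe dependence on settings alone. The log2 fold change ran from 8.87 to 9.68 for IL18BP, from 0.17 to 0.65 for IL18 and from 0.86 to 1.54 for IL1R1. That of IL1RAP ran from -0.061 (without treated replicate 2) to 1.47 (without untreated replicate 3). Over all genes, 819 calls (562 higher, 257 lower) became 1328 (849 and 479) without the filter on low counts, and 1513 (907 and 606) with the replicate number as a block. The pairing is by number alone: deviations of same-numbered libraries correlated at 0.651, -0.0037 and 0.374, and treated replicate 2 correlated best with another number. The block changed no member's call. Without 1 library the count ran from 455 (treated replicate 3; 465 for untreated replicate 2) to 1178 (higher from 358 to 733, lower from 96 to 445). Library totals alone moved the median of all genes to -0.13.

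In the signalling list, leaving out 1 library gave from 1 to 2 genes higher. In the inflammasome and release list 5 were higher under both the 1 CPM filter and none. Leaving out 1 library gave from 2 (without treated replicate 2 or 3) to 4 higher there. Among genes near 0, TOLLIP changed sign with DESeq2 size factors (0.0085), no filter (0.023), the 1 CPM filter (0.015), DESeq2 (0.0083) and some omitted libraries (-0.19 to 0.11). MAP3K7 did so with library totals (-0.046) and some omitted libraries (-0.083 to 0.36). TAB1 did so with library totals (-0.023) and without treated replicate 1 (-0.042 to 0.19 over omitted libraries), and IRAK1 without untreated replicate 1 (-0.42 to 0.015). The cause was not tested. Ordered by CPM in place of CPM per kb, 4 of 6 members kept their place in untreated and 4 of 8 in treated cells. Same-strand overlap was 53.5% over the last 1000 and 4.63% over all exonic bases of IL1RAP, and 2.11% over all those of IL18R1. Depth limits every member with few reads in a group, IL18 (35 untreated and 43 treated reads) and IL1RAP (31 and 39) among them.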
